A study of Homo sapiens with 12 samples.

Results

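The change of YTHDF2 enrichment with manganese is the ratio of immunoprecipitated (IP) to input RNA of each gene in manganese-treated cells, set against the same ratio in control cells. It was measured in U251-MG, a human astrocytoma line that the labels class as astrocyte. All 12 libraries of the series entered the comparison, 3 in each of 4 groups. The manganese IP and manganese input libraries came from cells in MEM with 2% FBS to which 100 µM manganese chloride was added, and the control IP and control input libraries from cells in MEM with 2% FBS alone. IP libraries held RNA recovered with an antibody to YTHDF2 from cleared lysate, and input libraries held poly(A) RNA of a small part of that lysate. Every group shares the same tumour-derived line, no IP with another antibody is labelled, and the labels give no exposure time. They do not say that replicates were separate cultures, so the p-values below measure only the spread between these libraries, which may be technical. Of 36963 genes in the deposited table, 14804 passed the count filter and were tested. The design text names YTHDF2 target mRNAs in astrocytic inflammation as the subject and MAP2K4 (SEK1), JNK and JUN as the pathway of interest.

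YTHDF2 is a cytosolic protein whose YTH domain binds N6-methyladenosine (m6A) in mRNA, and it recruits the CCR4-NOT deadenylase, which shortens the poly(A) tail and leads bound mRNAs to decay. Manganese is an essential trace metal that is toxic to the brain in excess, and astrocytes are the cells that take up much of it. In the JNK cascade, MAP3 kinases activate MAP2K4 and MAP2K7, these activate the kinases MAPK8 and MAPK9 (JNK1 and JNK2), and JNK phosphorylates the transcription factor JUN. An IP-to-input ratio can change because the IP level moved, because the input level moved, or because both did, so each gene is given with both terms. Levels below are in CPM, a library's counts scaled to a common total, here with TMM factors, and changes are differences on the log2 scale with their standard error (SE).

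Estimated gene counts ran from 16683984 to 28425552 per library, and the lowest total was that of control IP 3, in which 56.88% of fragments aligned against 83.7% to 87.12% in the others. PCGF6 alone held between 34.3% and 41.8% of the counts in each library. The first principal component (29.9% of the variance) set manganese IPs below 0 and control libraries above it, and the second (26.0%) set IPs above inputs. Astrocyte and glioma markers summed to 9643 to 9730 CPM in manganese IPs, 6149 to 9035 CPM in control IPs, 7397 to 8201 CPM in manganese inputs and 6179 to 6717 CPM in control inputs, with AQP4 at 0 in every library. The members did not all follow the sum. Of 18 tested, 3 were higher and 8 lower with manganese in the IP, and 4 higher and 6 lower in the input (edgeR, adjusted p under 0.05). Their median change was -0.77 log2 in the IP and -0.62 log2 in the input. Neuron markers summed to at most 105 CPM in any library, with RBFOX3 and STMN2 at 0. Microglia and macrophage markers summed to 39.9 to 43.0 CPM in manganese IPs, 2.66 to 4.01 CPM in control IPs, 40.1 to 45.5 CPM in manganese inputs and 4.79 to 8.80 CPM in control inputs. CD68, a lysosomal protein, carried nearly all of that sum, and AIF1, C1QA, C1QB, CX3CR1, P2RY12 and TYROBP were at 0 in every library. Epithelium and fibroblast markers summed to 14.3 to 23.4 CPM in manganese IPs, 3.42 to 6.31 CPM in control IPs, 11.5 to 17.1 CPM in manganese inputs and 2.82 to 5.03 CPM in control inputs.

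With manganese, YTHDF2 enrichment rose for 1028 genes and fell for 1503, which is 6.94% and 10.2% of the 14804 tested (17.1% in all, edgeR quasi-likelihood F test, Benjamini-Hochberg adjusted p under 0.05). The genes that rose included HSPB1, EIF5A and 33 mRNAs of cytosolic ribosomal proteins, and those that fell included MAP2K4, HIF1A, YAP1 and 76 KRAB zinc finger factors. The median change was 1.72 log2 over the genes that rose, -1.35 log2 over those that fell and -0.17 log2 over all tested genes. The balance of the counts moved with the scaling, the filter and a length offset. By total counts alone, where the median of all genes was 0.00, 1261 genes rose and 1009 fell (55.6% risen, against 40.6% with TMM factors). Genes with a mean of at least 5 CPM gave 1490 risen and 1143 fallen, a filter of 1 CPM in 3 libraries gave 1296 and 1225, and an offset for transcript length gave 1078 and 1023.

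Single libraries moved these counts as well. Without control IP 3 the counts were 1496 risen and 2269 fallen. They were lowest without control input 2 (675 risen, 889 fallen), control input 3 (682 and 844) and manganese input 3 (684 and 771), and the count of falls was also lower by over 1.5 times without manganese input 1 (853), manganese input 2 (849) and manganese IP 3 (972). Without control IP 3, 1018 of the 1028 risen and 1454 of the 1503 fallen genes were called again in the same direction.

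**Figure D1:**
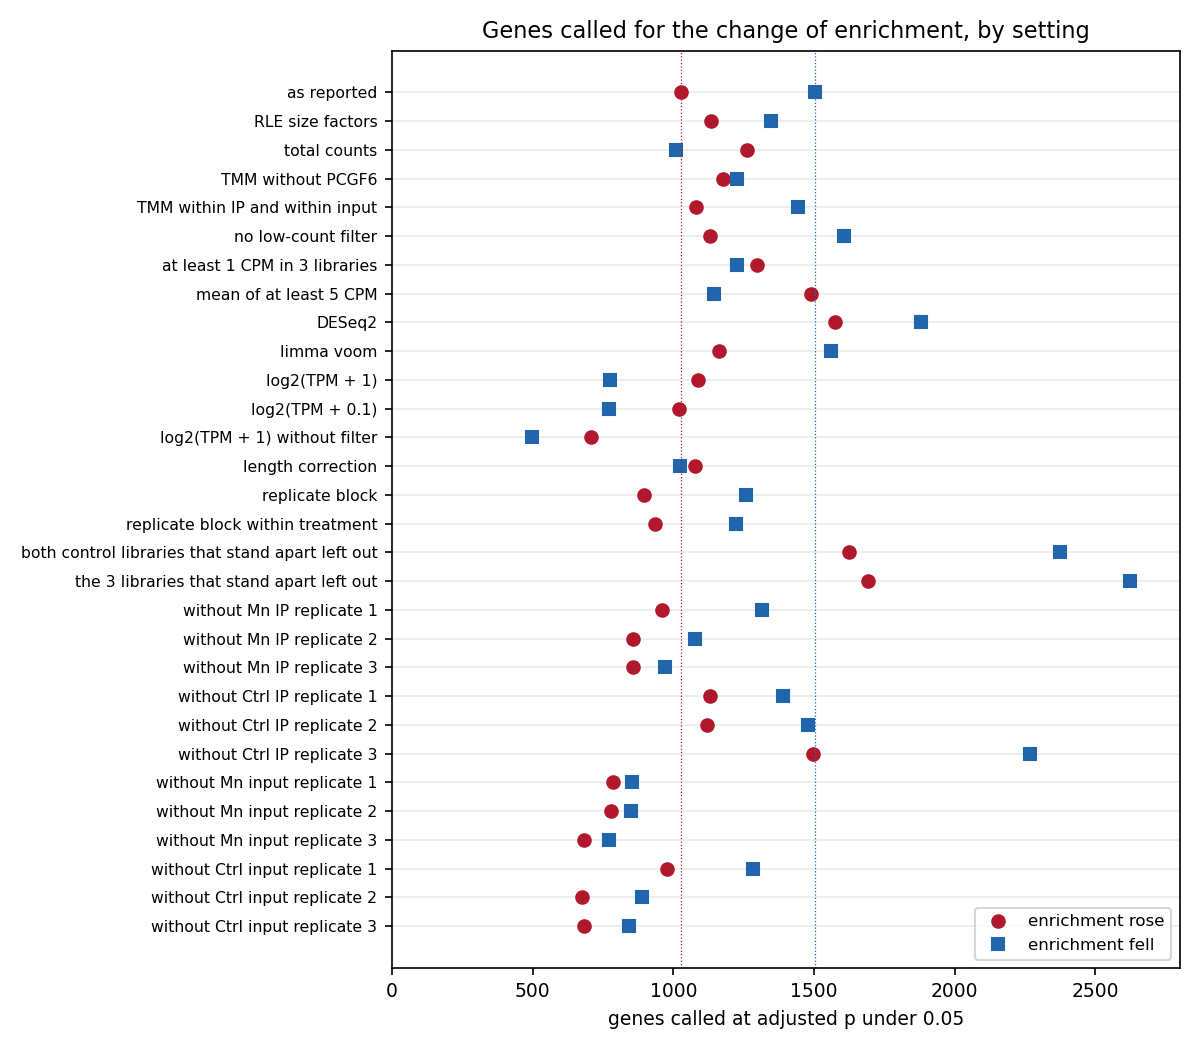
Number of genes called for the change of YTHDF2 enrichment (horizontal axis) as reported and under each of 29 other settings (rows), with circles for genes that rose, squares for genes that fell and dotted lines at the reported 1028 and 1503. Falls outnumber rises in the reported fit, rises outnumber falls by total counts, and leaving out control IP 3 gives 1496 and 2269.

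Few of these genes passed the test in both treatments on opposite sides of their input. Enrichment passed the test in manganese cells for 32.4% of tested genes (14.8% higher in the IP, 17.6% lower) and in control cells for 31.3% (17.2% higher, 14.2% lower). Of the 1028 genes that rose, 549 were depleted from the control IP and did not pass in manganese cells, 261 were enriched in the manganese IP and did not pass in control cells, 99 were enriched in the manganese IP and depleted from the control IP, 64 were depleted in both, 24 were enriched in both and 31 passed in neither. Of the 1503 that fell, 698 were depleted from the manganese IP and did not pass in control cells, 419 did not pass in manganese cells and were enriched in the control IP, 118 were enriched in both, 108 were depleted from the manganese IP and enriched in the control IP, 107 were depleted in both and 53 passed in neither. The medians did lie on opposite sides, without regard to the test. Risen genes had a median enrichment of 0.49 log2 in manganese cells and -1.33 log2 in control cells. Fallen genes had -0.93 log2 in manganese cells and 0.50 log2 in control cells.

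The IP level moved more often than the input level. Between treatments, 42.9% of tested genes passed the test in the IP (20.4% higher with manganese, 22.5% lower) and 15% in the input (11.3% higher, 3.63% lower). Among the 1028 risen genes, the IP alone passed for 767, both terms passed in the same direction for 220, the input alone for 18, both in opposite directions for 11 and neither for 12. In the 1503 fallen genes these counts were 1038, 172, 199, 51 and 43. Over all tested genes they were 4681, 1607, 546, 62 and 7908, so genes that passed in neither term make up most of the table and few of the called genes. Among risen genes with both terms in the same direction, both were higher with manganese in 218 and both lower in 2, and among such fallen genes both were higher in 57 and both lower in 115. The IP term was larger than the input term, without regard to sign, in 96.3% of risen genes, 78.0% of fallen genes and 69.6% of all tested genes. Since both terms are parts of the change itself, this split is a description and carries no test.

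**Figure D2:**
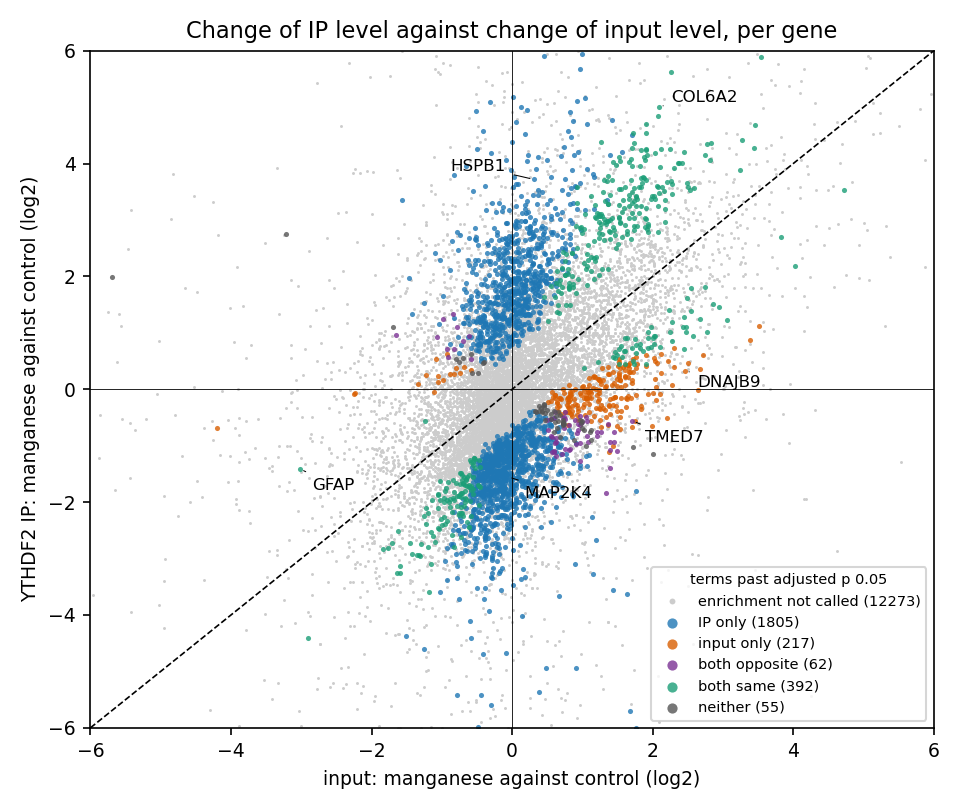
Each point is a gene, with the manganese-against-control change in the input on the horizontal axis and in the YTHDF2 IP on the vertical axis (both log2). Genes on the dashed diagonal kept their IP-to-input ratio, coloured genes were called for the change of enrichment and coloured by which term passed (1805 IP only, 217 input only, 62 both opposite, 392 both same, 55 neither), and 383 of the 14804 genes lie outside the plotted range.

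MAP2K4, the kinase that activates JNK, lost enrichment through the IP. Its level was 109, 96.8 and 66.3 CPM in manganese IPs and 271, 269 and 254 CPM in control IPs. In the inputs it was 77.8, 79.1 and 66.1 CPM with manganese and 75.2, 77.4 and 80.2 CPM in controls. Every manganese IP lay below every control IP, while the inputs overlapped. The IP change was -1.55 ± 0.18 log2 (adjusted p = 1.91e-05) and the input change -0.06 ± 0.18 log2 (adjusted p = 0.898), which gives a change of enrichment of -1.48 ± 0.25 log2 (adjusted p = 0.00245). It ran from -1.58 to -1.24 log2 when single libraries were left out and was called under all 29 alternatives.

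Of 25 JNK pathway genes tested, 3 rose in enrichment, 5 fell and 17 did not pass. Shares over all tested genes were 6.94% risen and 10.2% fallen. The list median was -0.69 log2 (all genes -0.17), -0.31 log2 without control IP 3 and -0.37 log2 with the offset for transcript length. Without 1 library the list had 2 to 5 risen and 3 to 6 fallen. Besides MAP2K4, the falls were MAP3K4, MAP3K5, MAP3K7 and the JNK phosphatase DUSP16, and the rises were MAP2K7, MAP3K11 and the AP-1 subunit FOSL1. The call was lost under 12 of 29 alternatives for MAP3K4, 11 for FOSL1, 7 for DUSP16, 3 for MAP3K5 and 1 for MAP2K7. It held under all of them for MAP3K7 and MAP3K11. MAP3K7 (TAK1), which relays cytokine signals to JNK and NF-kB, had 23.1, 18.9 and 16.9 CPM in manganese IPs against 62.0, 72.9 and 63.4 CPM in control IPs, and 35.3, 35.0 and 39.6 CPM in manganese inputs against 55.6, 53.6 and 48.0 CPM in control inputs. The manganese values were the lower ones in the IP and in the input, and its enrichment fell by 1.23 ± 0.23 log2 (adjusted p = 0.00431), or by 0.79 log2 with the length offset (adjusted p = 0.0363). MAP3K11 (MLK3), which phosphorylates MAP2K4 and MAP2K7, went the other way, with 52.3, 56.1 and 60.2 CPM in manganese IPs against 8.83, 13.1 and 12.6 CPM in control IPs. Its inputs overlapped, at 18.3, 18.5 and 9.76 CPM with manganese and 11.8, 12.7 and 14.3 CPM in controls. Its enrichment rose by 2.02 ± 0.36 log2 (adjusted p = 0.00300).

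The kinases and the transcription factor below MAP2K4 did not pass. MAPK8 changed by -0.54 ± 0.29 log2 (adjusted p = 0.229) and by -0.30 log2 without manganese input 3. MAPK9 changed by -0.84 ± 0.29 log2 (adjusted p = 0.0637), and with the offset for transcript length by -1.11 log2 (adjusted p = 0.0213). JUN had 444, 465 and 502 CPM in manganese IPs, 393, 353 and 235 CPM in control IPs, 176, 164 and 150 CPM in manganese inputs and 123, 121 and 125 CPM in control inputs. Manganese values were the higher ones in both fractions, and the ratio did not pass, with a change of enrichment of 0.11 ± 0.25 log2 (adjusted p = 0.818) that became -0.08 log2 without control IP 3. JUN mRNA was enriched in both treatments, by 1.52 log2 in manganese cells (adjusted p = 4.92e-05) and 1.41 log2 in control cells (adjusted p = 7.08e-05).

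**Figure D3:**
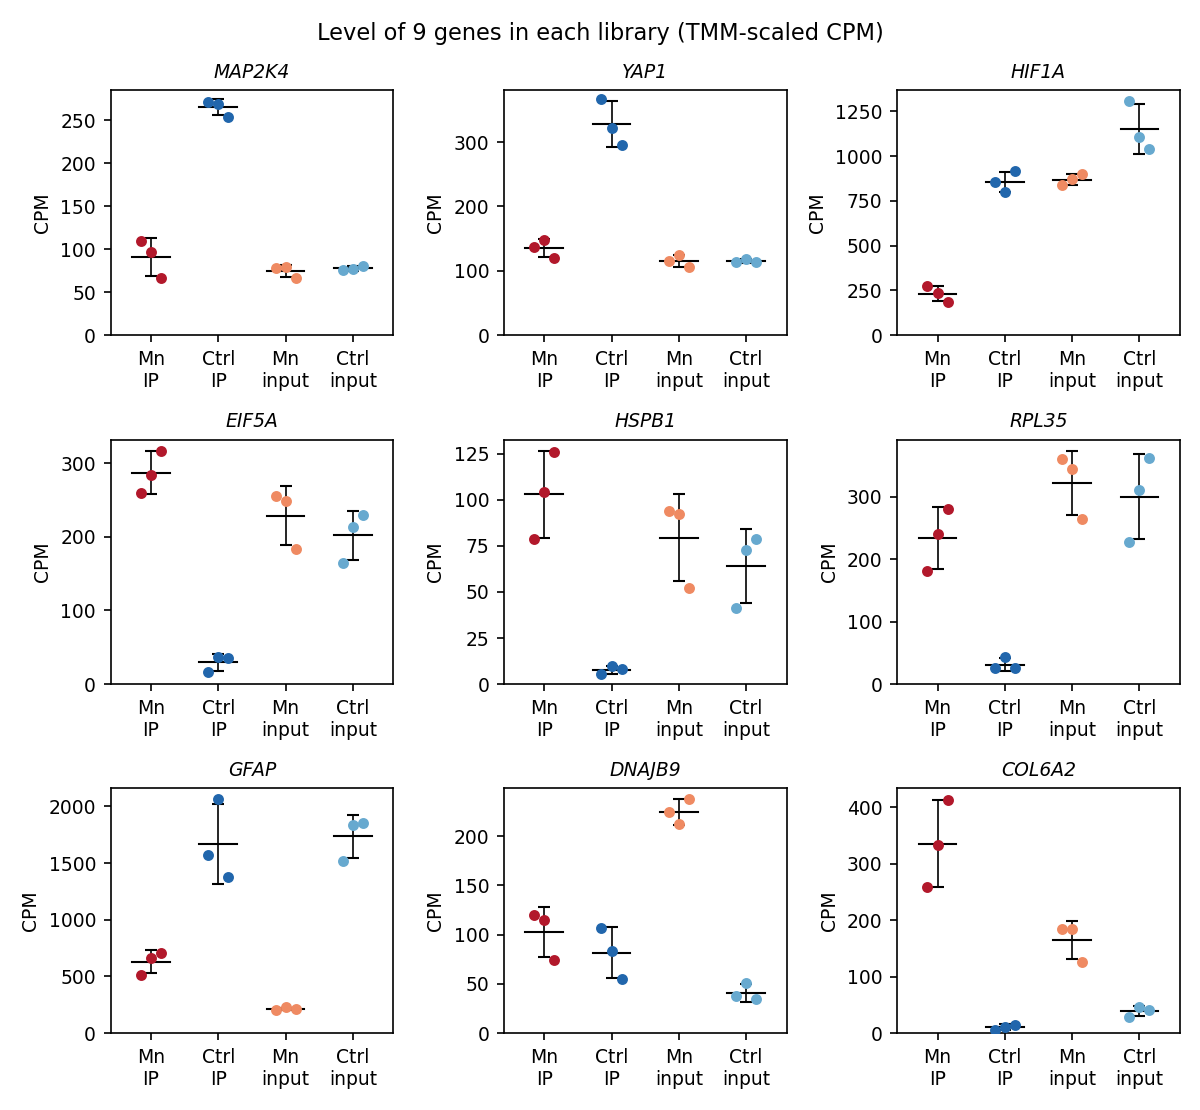
Level of 9 genes in each library, in TMM-scaled CPM on linear axes from 0, with points for libraries, a horizontal line for the mean and bars for the SD of 3 libraries. MAP2K4, YAP1 and HIF1A are lower and EIF5A, HSPB1 and RPL35 higher in manganese IPs than in control IPs, GFAP and DNAJB9 differ most in the input, and COL6A2 is higher with manganese in both fractions.

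The mRNA of YTHDF2 itself had 68.4, 72.4 and 61.0 CPM in manganese IPs, 149, 131 and 116 CPM in control IPs, 60.9, 60.1 and 62.8 CPM in manganese inputs and 80.3, 66.7 and 62.7 CPM in control inputs. Manganese IPs lay below control IPs, and the inputs overlapped. Its enrichment fell by 0.78 ± 0.22 log2 (adjusted p = 0.0269), a call that was lost with an offset for transcript length (adjusted p = 0.0885), without a count filter (0.0718), and without manganese IP 3 (0.0552), manganese input 1 (0.0573), 2 (0.0563) or 3 (0.0585), or control input 2 (0.0807) or 3 (0.0834). Of 12 m6A readers tested, 2 fell (YTHDF2 and YTHDC2) and none rose. YTHDC2, a helicase that reads m6A, fell by 1.19 ± 0.24 log2 (adjusted p = 0.00532, and 0.0636 with the length offset). Of 10 m6A writers and erasers, the demethylase ALKBH5 rose and 4 fell: the demethylase FTO, the methyltransferase subunit METTL14 and the writer cofactors WTAP and RBM15. ALKBH5 rose by 0.70 ± 0.19 log2 (adjusted p = 0.0235, but 0.0915 without a count filter, 0.0591 without control input 2 and 0.0708 without control input 3). FTO fell by 1.65 ± 0.44 log2 (adjusted p = 0.0210, but 0.0525 by total counts, 0.0550 on log2(TPM + 1) and between 0.0536 and 0.0702 without manganese IP 2, manganese input 1, 2 or 3, or control input 3). The count of 4 falls ran from 0 to 4 without 1 library and was 0 by total counts and 2 with the length offset. Of 24 deadenylation and decapping genes, 4 fell (CNOT1, CNOT6L, DDX6 and XRN1), none rose and 20 did not pass. Over all tested genes, 10.2% fell. The list had a median of -0.63 log2 (-0.27 with the length offset), and the count of falls ran from 0 to 9 without 1 library. With the length offset all 4 lost the call (adjusted p = 0.0638 for CNOT1, 0.708 for CNOT6L, 0.0820 for DDX6 and 0.325 for XRN1).

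Several Hippo pathway mRNAs fell in enrichment. YAP1, the coactivator at the end of the Hippo pathway, had 137, 148 and 120 CPM in manganese IPs and 367, 322 and 296 CPM in control IPs. Its inputs held 115, 124 and 106 CPM with manganese and 114, 119 and 114 CPM in controls. Enriched in the control IP (1.5 log2, adjusted p = 1.21e-05), it did not pass in manganese cells (0.23 log2, adjusted p = 0.256), and the change was -1.27 ± 0.20 log2 (adjusted p = 0.00198), or -0.82 log2 with the length offset (adjusted p = 0.0148). LATS1, the kinase that inhibits YAP1, had 13.3, 13.8 and 10.0 CPM in manganese IPs, 43.7, 36.1 and 89.1 CPM in control IPs, 46.3, 37.9 and 41.5 CPM in manganese inputs and 40.2, 42.0 and 41.3 CPM in control inputs. Manganese IPs were the lowest of the 4 groups, and its enrichment fell by 2.21 ± 0.40 log2 (adjusted p = 0.00344, but 0.0603 on log2(TPM + 1)). Of 26 Hippo pathway genes, 6 fell (also MOB1A, STK3, TEAD1 and WWTR1) and none rose, with a median of -0.68 log2 (-0.39 with the length offset). By comparison, 10.2% of all tested genes fell. Without 1 library, 3 to 8 Hippo genes fell and 0 to 3 rose. When manganese IP 2 or 3 or any 1 manganese input was left out, 3 fell. The call was lost under 23 of 29 alternatives for MOB1A, 21 for STK3 and 12 for TEAD1. WWTR1 (TAZ), the paralogue of YAP1, fell by 0.84 ± 0.20 log2 (adjusted p = 0.0119), which was lost with the length offset (adjusted p = 0.238).

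HIF1A, the oxygen-regulated transcription factor, had 272, 235 and 187 CPM in manganese IPs, 853, 800 and 915 CPM in control IPs, 836, 872 and 899 CPM in manganese inputs and 1310, 1108 and 1038 CPM in control inputs. Manganese IPs lay below every other library. The change of enrichment was -1.48 ± 0.23 log2 (adjusted p = 0.00180). NFE2L2 (NRF2), the regulator of antioxidant genes, had 40.3, 35.1 and 25.9 CPM in manganese IPs against 119, 116 and 110 CPM in control IPs, with inputs of 42.3, 39.3 and 39.0 CPM with manganese and 47.7, 50.9 and 45.3 CPM in controls. Like YAP1, it was enriched in the control IP (1.26 log2, adjusted p = 1.02e-04) and did not pass in manganese cells (-0.25 log2, adjusted p = 0.290), and its enrichment fell by 1.52 ± 0.24 log2 (adjusted p = 0.00189). CHUK, a kinase that activates NF-kB, had 9.31, 6.51 and 3.93 CPM in manganese IPs against 41.2, 34.8 and 88.5 CPM in control IPs, and its inputs held 32.5, 30.5 and 33.7 CPM with manganese and 38.8, 36.9 and 36.7 CPM in controls. The fall was 2.84 ± 0.48 log2 (adjusted p = 0.00261, but 0.0583 on log2(TPM + 1) without a filter). MDM2, a ubiquitin ligase, fell by 1.04 ± 0.21 log2 (adjusted p = 0.00576, but 0.112 on log2(TPM + 1)).

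KRAB zinc finger factors, DNA-binding repressors encoded in large gene clusters, had the most falls by count among the lists described, and theirs was the longest list. Of 266 tested, 76 fell, 3 rose and 187 did not pass, against 10.2% fallen and 6.94% risen over all tested genes. The median change was -1.10 log2. In the IP, 173 were lower with manganese and 3 higher, where 22.5% of all tested genes were lower and 20.4% higher. In the input, 12 were lower and 1 higher, against 3.63% and 11.3% of all tested genes. The count of falls stayed between 50 and 73 across the other scalings and the length offset, and was 44, 46 and 42 without manganese input 1, 2 and 3 and 50 without manganese IP 3. ZNF700 had 12.7, 13.9 and 11.4 CPM in manganese IPs, 57.7, 56.5 and 44.3 CPM in control IPs, 10.4, 11.2 and 9.86 CPM in manganese inputs and 8.37, 12.1 and 10.7 CPM in control inputs. Only the control IPs stood apart, and its enrichment fell by 2.07 ± 0.29 log2 (adjusted p = 0.00143). ZNF304 fell by 2.05 ± 0.28 log2 (adjusted p = 0.00135), ZNF12 by 1.87 ± 0.27 log2 (adjusted p = 0.00143) and ZNF184 by 1.83 ± 0.26 log2 (adjusted p = 0.00143), and ZNF184 was also lower in the input (-0.61 log2, adjusted p = 0.0398). Members of this family share sequence, so counts assigned to single members are uncertain.

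Ubiquitin ligases and deubiquitinases also fell without a rise: 13 of 41 tested fell and 28 did not pass, with a median of -0.86 log2. The share of falls over all tested genes was 10.2%. The 13 were CUL1, CUL3, CUL5, ITCH, MIB1, NEDD4, RNF2, UBE3A, USP1, USP10, USP14, USP9X and WWP1, and in all of them the IP alone passed. Without control input 2 or 3 the count was 5, without manganese input 3 it was 7, and without manganese IP 3 or manganese input 1 it was 8. Across the other scalings and the length offset, 8 to 12 fell. With the length offset, CUL5, ITCH, MIB1, UBE3A, USP14 and USP9X lost the call. USP1 had 0 counts in the manganese IPs and 89 over the control IPs. CUL1, the scaffold of SCF ubiquitin ligases, had 120, 92.7 and 86.0 CPM in manganese IPs, 200, 221 and 220 CPM in control IPs, 152, 140 and 160 CPM in manganese inputs and 159, 139 and 134 CPM in control inputs. Its place relative to the input turned round: -0.60 log2 in manganese cells (adjusted p = 0.010) and 0.57 log2 in control cells (adjusted p = 0.0134), a change of -1.17 ± 0.22 log2 (adjusted p = 0.00430). SF3B1, a core protein of the spliceosome, fell by 1.37 ± 0.21 log2 (adjusted p = 0.00163), EIF4A2, a helicase of translation initiation, by 1.72 ± 0.24 log2 (adjusted p = 0.00143), and CDK1, the kinase that drives mitosis, by 1.61 ± 0.26 log2 (adjusted p = 0.00208).

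Genes could be named as large changes only where the IP-to-input differences of same-numbered libraries separated the treatments, which 16.9% of tested genes met with manganese above and 22.2% with manganese below. UBE2D1, a ubiquitin-conjugating enzyme, had 0.700, 0.719 and 1.76 CPM in manganese IPs, 12.4, 11.3 and 6.11 CPM in control IPs, 14.8, 18.9 and 14.7 CPM in manganese inputs and 19.8, 16.4 and 18.3 CPM in control inputs. The inputs overlapped, and its enrichment fell by 3.05 ± 0.52 log2 (adjusted p = 0.00269). MANEA, a Golgi mannosidase, had 0.165, 0.862 and 0 CPM in manganese IPs against 2.96, 2.03 and 7.93 CPM in control IPs and 12.2 to 24.8 CPM in the inputs, and its enrichment fell by 4.33 ± 1.01 log2 (adjusted p = 0.0118). That value ran from -6.23 to -3.56 log2 without 1 library and was -1.94 log2 on log2(TPM + 1), where the adjusted p was 0.0403 with a filter on low values and 0.111 without.

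Cytosolic ribosomal proteins had the most rises of the lists described. Among all tested genes, 6.94% rose and 10.2% fell. Of 74 cytosolic ribosomal proteins tested, 33 rose, none fell and 41 did not pass, with a median change of 1.23 log2 (all genes -0.17). In the IP 53 were higher with manganese and 2 lower; in the input none was higher and 1 lower. Their median enrichment was -0.80 log2 in manganese cells and -2.09 log2 in control cells, so the group lay below its input in both treatments and less so with manganese. Across the other scalings and the length offset 32 to 57 rose, and without control IP 1 or 3 the count was 56 or 60. RPL35 had 182, 240 and 281 CPM in manganese IPs, 25.2, 43.5 and 25.5 CPM in control IPs, 360, 344 and 264 CPM in manganese inputs and 227, 311 and 362 CPM in control inputs. Control IPs stood far below the rest, the inputs overlapped, and its enrichment rose by 2.80 ± 0.36 log2 (adjusted p = 0.00128). RPS16 rose by 3.31 ± 0.41 log2 (adjusted p = 0.00128), RPL36 by 3.37 ± 0.45 log2 (adjusted p = 0.00135) and RPS9 by 2.54 ± 0.35 log2 (adjusted p = 0.00143). Ribosomal protein genes have many processed pseudogenes, so how reads were shared between copies is uncertain.

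Ribosomal protein mRNAs are known to start with a C followed by a run of pyrimidines, the 5′ terminal oligopyrimidine (TOP) element through which their translation is controlled. To show it in the genes that rose, the annotated start is printed here with 5 bases before and 20 from it (RefSeq, GRCh38.p14, gene strand), in lower case with a pyrimidine run in capitals, beside MAP2K4, LATS1 and ZNF700, which fell.
RPS16 (chr19:39435930-39435954, minus strand): gctttCCTTTTCCggttgcggcgcc
RPL35 (chr9:124861938-124861962, minus strand): acttcCTCTTTCCCTCggagcgggc
RPL36 (chr19:5690290-5690314, plus strand): ccagcCCTTCCgccacggccgtctc
RPS9 (chr19:54200853-54200877, plus strand): cgcgcCTCTTTCTCagtgaccgggt
MAP2K4 (chr17:12020872-12020896, plus strand): tcttcaCTCCCaacaatggcggctc
LATS1 (chr6:149716406-149716430, minus strand): ggaacagcaatcatttttcagcatg
ZNF700 (chr19:11925102-11925126, plus strand): gctttcctcaccttcctcgctgcgc
A run was counted where a C within 3 bases of the start was followed by at least 4 bases that are C or T, on the gene strand only. In ZNF700 a stretch of C and T also spans the start. Its first C lies more than 3 bases before the start, so it was not counted. The runs in RPS16, RPL35, RPL36 and RPS9 hold 8, 11, 6 and 9 bases.

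A start of that kind was present in 46 of the 59 tested ribosomal protein genes matched by symbol (78.0%), and in 23 of the 27 matched ones that rose (85.2%). It was present in 17.9% of the 809 matched genes that rose, 15% of the 1188 matched genes that fell, 14.4% of all 10283 matched tested genes and 13.1% of all 27305 starts in the reference table. Without ribosomal proteins the share among genes that rose was 15.6%. MAP2K4, whose enrichment fell, has a run of 5 bases, so a run was not limited to genes that rose. A match says only that these letters stand at the annotated start.

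Most mitochondrial ribosomal proteins and respiratory chain genes did not pass, and nearly all that did rose. The shares over all tested genes were 6.94% risen and 10.2% fallen. Of 71 mitochondrial ribosomal proteins, 12 rose, none fell and 59 did not pass, with a median of 0.46 log2 (0.72 without control IP 1, 0.28 without control IP 3 and 0.28 with the length offset). In the IP, 18 were higher with manganese and 9 lower. The count of rises was 4 without manganese input 3 or control input 3, 6 without control input 2 and 7 without control input 1. MRPL54 had 14.2, 21.0 and 24.2 CPM in manganese IPs, 1.44, 2.68 and 2.56 CPM in control IPs, 15.7, 18 and 19.6 CPM in manganese inputs and 9.12, 18.2 and 18.3 CPM in control inputs. Its inputs overlapped, and its enrichment rose by 2.93 ± 0.47 log2 (adjusted p = 0.00202). Of 71 nuclear-encoded respiratory chain genes, 14 rose, the complex I subunit NDUFS1 fell and 56 did not pass, with a median of 0.78 log2 and 11 to 18 rises without 1 library. The median was 0.45 log2 without control IP 3 and 0.36 log2 when control input 1 and manganese IP 3 were left out as well. NDUFS1 lost its call under 17 of 29 alternatives. NDUFA13, a subunit of complex I, had 71.6, 100 and 122 CPM in manganese IPs, 3.93, 12.6 and 10.5 CPM in control IPs, 125, 127 and 94.8 CPM in manganese inputs and 78.0, 95.2 and 94.6 CPM in control inputs. The lowest manganese IP held several times the highest control IP, and the rise was 3.07 ± 0.47 log2 (adjusted p = 0.00165). NDUFS6, also of complex I, rose by 2.80 ± 0.36 log2 (adjusted p = 0.00128) and ATP5ME, of ATP synthase, by 1.98 ± 0.32 log2 (adjusted p = 0.00211).

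Of 43 translation factors, 6 rose, 5 fell and 32 did not pass. Over all tested genes, 6.94% rose and 10.2% fell. Those that rose were the elongation factors EEF1D, EEF1G and EEF2, EIF5A, the initiation factor subunit EIF3K and the ribosome assembly factor EIF6, and those that fell were EIF2S1, EIF4A2, EIF4G2, ETF1 and GSPT1. EIF5A, which helps ribosomes past stalling sequences, had 259, 284 and 317 CPM in manganese IPs, 16.5, 36.4 and 36.1 CPM in control IPs, 255, 248 and 183 CPM in manganese inputs and 165, 213 and 229 CPM in control inputs. The groups overlapped in the input and were far apart in the IP, and its enrichment rose by 3.10 ± 0.38 log2 (adjusted p = 0.00128). EEF1D lay above its input with manganese (0.63 log2, adjusted p = 0.0350) and below it in controls (-2.18 log2, adjusted p = 1.47e-05), a change of 2.80 ± 0.30 log2 (adjusted p = 0.00128). Without control IP 3, 10 factors fell, and 2 or 3 did when manganese IP 3, any 1 manganese input, control input 2 or control input 3 was left out.

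Of 38 proteasome genes, 9 rose and PSME4, an activator of the core particle, fell, against 6.94% and 10.2% of all tested genes. Without control input 2, 5 rose, and with the length offset, 4. ADRM1, a ubiquitin receptor of the proteasome, rose by 2.44 ± 0.50 log2 (adjusted p = 0.00621), and PSMD3, a lid subunit, by 1.27 ± 0.24 log2 (adjusted p = 0.00437). HSPB1, a small heat shock protein, had 78.6, 104 and 126 CPM in manganese IPs, 5.49, 9.60 and 8.4 CPM in control IPs, 94.0, 92.4 and 52.1 CPM in manganese inputs and 41.4, 72.5 and 78.6 CPM in control inputs. Manganese IPs reached the level of the inputs and control IPs lay far below them, a rise of 3.41 ± 0.44 log2 (adjusted p = 0.00128). BAX, which permeabilises mitochondria in apoptosis, had 28.3, 43.1 and 35.5 CPM in manganese IPs, 4.31, 5.27 and 7.72 CPM in control IPs, 19.0, 21.1 and 15.5 CPM in manganese inputs and 20.1, 16.4 and 20.9 CPM in control inputs, and its enrichment rose by 2.67 ± 0.36 log2 (adjusted p = 0.00135). PMAIP1 (NOXA), another apoptosis gene, fell by 1.75 ± 0.34 log2 (adjusted p = 0.00467).

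Antioxidant genes moved in both directions. Of 34 NRF2 and antioxidant genes, 12 rose (among them FTL, GPX4, GSTP1, HMOX1, MAFK, PRDX2, SQSTM1 and TKT) and 7 fell (BACH1, CAT, GCLC, NFE2L2, PRDX3, SOD2 and TXNRD1). Without 1 library, 11 to 17 rose and 4 to 9 fell. In the reported fit, 6.94% of all tested genes rose and 10.2% fell. Among the falls, the call was lost under 23 of 29 alternatives for CAT, 12 for TXNRD1, 10 for BACH1 and 1 for PRDX3. It held under all of them for GCLC, NFE2L2 and SOD2. Among the rises named, SQSTM1 lost it under 9. TKT, an enzyme of the pentose phosphate pathway, had 651, 658 and 765 CPM in manganese IPs, 177, 203 and 128 CPM in control IPs, 495, 456 and 411 CPM in manganese inputs and 369, 431 and 412 CPM in control inputs, and rose by 1.86 ± 0.25 log2 (adjusted p = 0.00135). SOD2, the manganese-dependent superoxide dismutase of mitochondria, had 102, 91.9 and 78.4 CPM in manganese IPs, 189, 180 and 187 CPM in control IPs, 273, 261 and 257 CPM in manganese inputs and 204, 207 and 217 CPM in control inputs. Its IP level was the lower and its input level the higher with manganese, the input without passing (adjusted p = 0.141), and its enrichment fell by 1.36 ± 0.19 log2 (adjusted p = 0.00143). PRDX3, the mitochondrial peroxiredoxin, fell by 1.83 ± 0.26 log2 (adjusted p = 0.00143, but 0.0678 on log2(TPM + 1) without a filter). FTL, the ferritin light chain, rose by 1.53 ± 0.33 log2 (adjusted p = 0.00758).

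Other large rises were changes of the IP with no input change that passed. TFPT, a protein of the INO80 chromatin complex, had 13.9, 16.3 and 17.2 CPM in manganese IPs, 0.296, 1.25 and 0.470 CPM in control IPs, 7.71, 7.32 and 5.27 CPM in manganese inputs and 6.49, 6.0 and 5.41 CPM in control inputs. It stood above its input with manganese (1.22 log2, adjusted p = 0.0362) and below it in controls (-3.13 log2, adjusted p = 1.87e-04), a change of 4.35 ± 0.61 log2 (adjusted p = 0.00143). FKBP8, an anchor of BCL2 on mitochondria, rose by 3.94 ± 0.60 log2 (adjusted p = 0.00166), GADD45GIP1, a protein of the mitochondrial ribosome, by 3.78 ± 0.44 log2 (adjusted p = 0.00128), and BCL7C, a subunit of SWI/SNF complexes, by 3.74 ± 0.52 log2 (adjusted p = 0.00143). U2AF2, the splicing factor that binds the polypyrimidine tract, had 251, 269 and 253 CPM in manganese IPs against 48.1, 72.2 and 63.3 CPM in control IPs, with 88.8 to 108 CPM in manganese inputs and 70.9 to 92.0 CPM in control inputs. It rose by 1.86 ± 0.25 log2 (adjusted p = 0.00135).

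**Figure D4:**
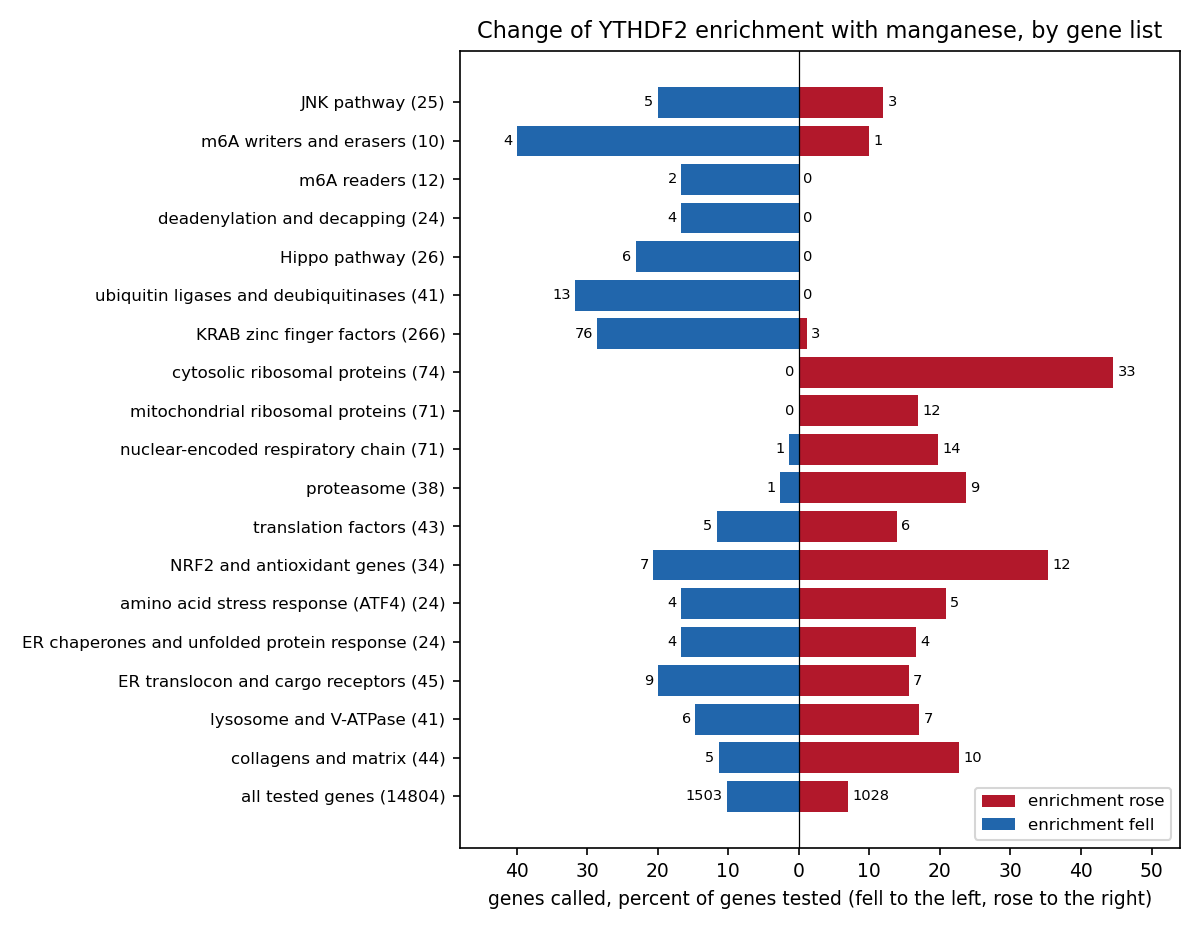
Genes whose enrichment rose (bars to the right) or fell (bars to the left), as percent of the genes tested in each list (number tested in brackets), with the number of genes at the bar ends and all 14804 tested genes in the lowest row. Cytosolic ribosomal proteins have 33 rises and 0 falls, KRAB zinc finger factors 3 rises and 76 falls.

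Where the input moved and the IP did not pass, falls outnumbered rises by 199 to 18. The input term is subtracted in the change, so in this class its sign largely sets the direction. All 199 falls had a higher input with manganese, and all 18 rises a lower one. Over all tested genes, the input passed as higher with manganese for 1678 and as lower for 537. DNAJB9 (ERdj4), a co-chaperone of the endoplasmic reticulum (ER) induced by unfolded proteins, had 120, 115 and 74.0 CPM in manganese IPs, 107, 83.3 and 54.9 CPM in control IPs, 224, 212 and 238 CPM in manganese inputs and 37.5, 51.1 and 34.3 CPM in control inputs. Manganese inputs were the highest group and control inputs the lowest, and the IPs overlapped, with an input change of 2.46 ± 0.26 log2 (adjusted p = 2.85e-05) and an IP change of 0.33 ± 0.25 log2 (adjusted p = 0.319). Its enrichment fell by 2.12 ± 0.36 log2 (adjusted p = 0.00244). SLC16A1 (MCT1), a lactate transporter, had 91.0, 63.4 and 35.9 CPM in manganese IPs, 46.3, 53.6 and 92.6 CPM in control IPs, 399, 425 and 491 CPM in manganese inputs and 93.7, 69.7 and 46.5 CPM in control inputs, and its enrichment fell by 2.66 ± 0.49 log2 (adjusted p = 0.00364). SLC39A10, a zinc importer, fell by 1.77 ± 0.26 log2 (adjusted p = 0.00143, but -0.98 log2 and 0.0502 on log2(TPM + 1)) with an input change of 1.48 ± 0.18 log2 (adjusted p = 8.29e-05). MINPP1, an inositol phosphate phosphatase of the ER, fell by 2.24 ± 0.44 log2 (adjusted p = 0.00483).

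In the other direction, MT1E, a metallothionein that binds zinc and other metals, had 8.07, 7.04 and 8.49 CPM in manganese IPs, 8.45, 10.3 and 5.90 CPM in control IPs, 6.72, 6.31 and 4.25 CPM in manganese inputs and 29.3, 25.7 and 26.3 CPM in control inputs. The control inputs were the high group, and enrichment rose by 2.17 ± 0.38 log2 (adjusted p = 0.00295) with an input change of -2.23 ± 0.28 log2 (adjusted p = 8.62e-05). Metallothionein genes are near-identical copies, so counts of single members are uncertain. GFAP, the intermediate filament that marks astrocytes, fell in both fractions and more in the input. It had 515, 665 and 708 CPM in manganese IPs, 1567, 2064 and 1373 CPM in control IPs, 204, 227 and 212 CPM in manganese inputs and 1517, 1835 and 1850 CPM in control inputs. The input change was -3.02 ± 0.20 log2 (adjusted p = 6.20e-07), the IP change -1.41 ± 0.19 log2 (adjusted p = 5.10e-05), and enrichment rose by 1.61 ± 0.26 log2 (adjusted p = 0.00198). In bulk RNA, fewer cells of a type and less RNA per cell cannot be told apart.

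Most genes of the ER, amino acid stress, lysosome and matrix lists were higher with manganese in each fraction. For most of them the ratio did not pass, and the called ones went in either direction. Of all tested genes, 20.4% were higher with manganese in the IP and 11.3% in the input, while enrichment rose for 6.94% and fell for 10.2%. In the list of ER chaperones and unfolded protein response, 21 of 24 genes were higher with manganese in the IP and 22 in the input, while enrichment rose for 4 (CRELD2, HYOU1, P4HB and SDF2L1) and fell for 4 (DNAJB9, EDEM1, EIF2AK3 and SEL1L). In the ATF4-driven amino acid stress response, 22 of 24 were higher in the IP and 21 in the input, with enrichment up for 5 (CHAC1, PHGDH, PPP1R15A, SHMT2 and SLC7A5) and down for 4 (ALDH18A1, MTHFD2, PSAT1 and SLC7A1). Among 44 collagens and matrix genes, 37 were higher in the IP and 37 in the input, and enrichment rose for 10 and fell for 5, with 4 to 13 risen and 2 to 10 fallen without 1 library and a median that changed sign with the scaling. In the ER translocon and cargo receptor list, 28 of 45 were higher in the IP and 32 in the input, and 7 rose and 9 fell in enrichment, but 17 fell without control IP 3 and 3 to 5 when any 1 manganese library or control input 2 or 3 was left out. The lysosome list had 30 of 41 genes higher in each fraction, with 7 rises and 6 falls, and with 12 falls without control IP 3 and 3 without manganese input 3 or control input 3. The summed microglia and macrophage markers, through CD68, and the summed epithelium and fibroblast markers were also higher with manganese in both fractions, at the CPM given above, and their part in these groups was not tested.

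COL6A2, a chain of collagen VI, had 259, 334 and 413 CPM in manganese IPs, 4.94, 11.6 and 14.7 CPM in control IPs, 185, 185 and 126 CPM in manganese inputs and 29.5, 46.9 and 40.4 CPM in control inputs. The IP change of 5.01 ± 0.38 log2 (adjusted p = 6.95e-07) exceeded the input change of 2.09 ± 0.34 log2 (adjusted p = 6.82e-04), and enrichment rose by 2.92 ± 0.47 log2 (adjusted p = 0.00198). P4HB, the protein disulfide isomerase of the ER, had 818, 867 and 1134 CPM in manganese IPs, 40.0, 68.0 and 38.8 CPM in control IPs, 139, 135 and 257 CPM in manganese inputs and 55.7, 37.4 and 29.0 CPM in control inputs, and rose by 2.14 ± 0.44 log2 (adjusted p = 0.00648). The same kind of rise was seen for TIMP1, an inhibitor of matrix metalloproteinases (2.36 ± 0.35 log2, adjusted p = 0.00162), for CTSD, a lysosomal protease (2.25 ± 0.41 log2, adjusted p = 0.00351), for the ER cargo receptor LMAN2 (2.14 ± 0.31 log2, adjusted p = 0.00143) and for PHGDH, the first enzyme of serine synthesis (1.60 ± 0.23 log2, adjusted p = 0.00143). EIF2AK3 (PERK), an ER stress sensor kinase, went the other way with both fractions higher: it had 135, 128 and 107 CPM in manganese IPs, 90.5, 68.0 and 65.6 CPM in control IPs, 96.2, 102 and 122 CPM in manganese inputs and 24.9, 18.9 and 14.9 CPM in control inputs. The input rose by more than the IP, and enrichment fell by 1.73 ± 0.29 log2 (adjusted p = 0.00251). INSIG2, an ER regulator of cholesterol synthesis, fell by 1.35 ± 0.25 log2 (adjusted p = 0.00375) and ALDH18A1, an enzyme of proline synthesis, by 1.07 ± 0.23 log2 (adjusted p = 0.00848) in the same way.

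In 62 called genes the IP and the input moved in opposite directions, 51 of them with a lower IP and a higher input. TMED7, a cargo receptor of the early secretory pathway, had 95.5, 101 and 67.7 CPM in manganese IPs, 157, 130 and 102 CPM in control IPs, 479, 510 and 564 CPM in manganese inputs and 172, 171 and 131 CPM in control inputs. Its IP fell by 0.56 ± 0.20 log2 (adjusted p = 0.0381), its input rose by 1.71 ± 0.21 log2 (adjusted p = 6.83e-05), and its enrichment fell by 2.27 ± 0.29 log2 (adjusted p = 0.00128). IFIT1, an interferon-induced protein that binds foreign RNA, fell by 1.68 ± 0.23 log2 in enrichment (adjusted p = 0.00143), with an IP change of -1.11 ± 0.16 log2 and an input change of 0.57 ± 0.16 log2. Of the 11 genes with a higher IP and a lower input, PCIF1, the methyltransferase that makes m6Am at the mRNA cap, had 13.9, 19.0 and 16.1 CPM in manganese IPs, 5.74, 8.21 and 6.73 CPM in control IPs, 7.14, 6.95 and 8.07 CPM in manganese inputs and 11.2, 15 and 17.8 CPM in control inputs. Its enrichment was 1.14 log2 in manganese cells and -1.09 log2 in control cells, a rise of 2.23 ± 0.37 log2 (adjusted p = 0.00228). SLC25A6, an ATP/ADP carrier of mitochondria, rose by 2.17 ± 0.33 log2 (adjusted p = 0.00163).

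A further 48 called genes, 18 risen and 30 fallen, had 0 counts in all 3 libraries of some group, and 7 of these averaged at least 5 CPM. UPF1, the helicase of nonsense-mediated decay, had 0 counts in the manganese IPs and 837 over the control IPs, with 1088 over manganese inputs and 1317 over control inputs. Set against a floor of 3 counts for the 3 libraries together, it was at least 285-fold lower in manganese IPs than in control IPs. OGFOD1, a prolyl hydroxylase of a ribosomal protein, had 0 counts in the manganese IPs and 796 over the control IPs, at least 271-fold lower in the manganese IPs, with 2233 over manganese inputs and 3535 over control inputs. HDGFL2, a chromatin reader, had 2374 counts over the manganese IPs and 0 in the control IPs, at least 776-fold higher, with 970 over manganese inputs and 621 over control inputs. The floor covers counting error only. Estimated counts can be 0 because reads were assigned to another gene, which was not tested, and these 3 calls were lost on log2(TPM + 1).

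Effective transcript length went with the change. In 10 bins of equal size by length, the median change was 0.32 log2 in the bin of the shortest genes (124 risen, 37 fallen) and -0.63 log2 in that of the longest (32 risen, 312 fallen). The Spearman correlation of length and change was -0.208 across 14804 genes, which share libraries and are not replicates. In the shortest bin the median enrichment was -0.39 log2 in manganese cells and -0.77 log2 in control cells, and in the longest 0.20 log2 in manganese cells and 0.69 log2 in control cells, so enrichment spread less over length with manganese. Median relative length (all genes 0.991) was 0.731 for risen genes and 1.69 for fallen genes. It was 0.256 for cytosolic ribosomal proteins, 1.59 for KRAB zinc finger factors and 1.70 for ubiquitin ligases and deubiquitinases. With the offset for length, 899 of the risen and 924 of the fallen genes were called again in the same direction, the ribosomal proteins had 32 rises and the KRAB factors 50 falls. Level went with the change as well. In 4 bins by mean CPM, the median change was 0.09, 0.01, -0.24 and -0.31 log2, lowest level first.

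**Figure D5:**
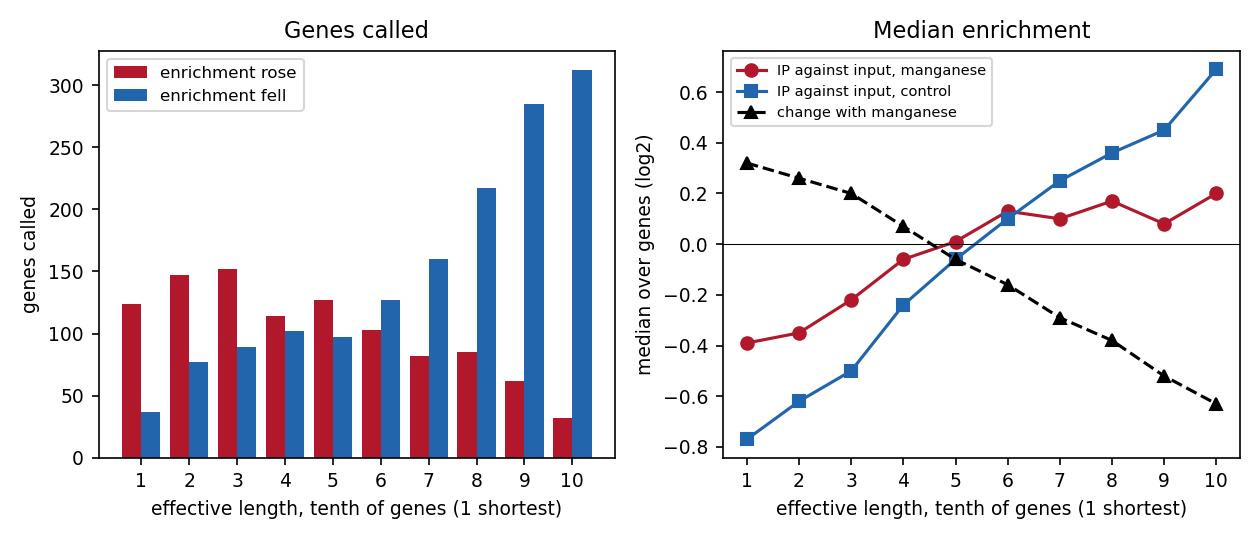
Left, number of genes whose enrichment rose or fell in each of 10 bins by effective transcript length; right, median log2 enrichment in manganese and in control cells and their difference in the same bins. The longest bin has 32 rises and 312 falls, and the manganese line runs between -0.39 and 0.20 while the control line runs between -0.77 and 0.69.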

How the data were processed

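YTHDF2 immunoprecipitates and poly(A) inputs were sequenced as stranded paired-end libraries, per the labels' protocols, and kallisto and hg19 are named in the submitters' processing notes with no version of kallisto. The deposited gene table holds estimated counts that the authors rounded to whole numbers. The deposited table of TPM values was used for alternatives, and its gene column named 35185 of 36963 genes. The deposited library summary gives fragment counts and the percent aligned. No count was turned into a rate before testing.

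Genes were filtered with filterByExpr (minimum count 10, minimum total 15), scaled by TMM factors and fitted with 4 group means in edgeR 4.0.16 (R 4.3.3). The change of enrichment is (manganese IP minus manganese input) minus (control IP minus control input), tested with the quasi-likelihood F test, with Benjamini-Hochberg adjustment over all 14804 genes tested and a threshold of 0.05. Each SE is the log2 change divided by the square root of F. In a simulated check of this comparison on 14164 genes, 26 of 50 genes changed by 1.5 log2, 16 of 50 by -1.5, 49 of 50 by 3.0 and 45 of 50 by -3.0 were recovered, with 5 false calls. The changed genes averaged at least 5 CPM in the IPs and in the inputs. No other simulated gene differed between treatments. The check therefore does not cover changes at lower levels or the many IP changes of the real libraries.

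The 15 largest rises and falls and the 6 largest per class of the split and direction were eligible to be named. These were taken from genes with a mean of at least 5 CPM, a count in every group and same-numbered IP-to-input differences that separate the treatments. The 4 smallest p-values per list, and MAP2K4, MAPK8, MAPK9, JUN and YTHDF2, were eligible without these limits. Other genes are named only to complete the count of a list. The genes, lists and tests were chosen with earlier results of these data known, so no list gives independent support. Alternatives were other scalings and filters, DESeq2 1.42.0, limma 3.58.1 (voom, and log2 TPM with pseudocounts of 1 and 0.1), a transcript length offset, a replicate block, a threshold of 0.01 and libraries left out. Transcript tables were not used, and some genes are not reported here.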

Additional observations from a re-analysis of the deposited data

Results flagged for a closer look

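Genes are given here because manganese and control cells stood on opposite sides of the input, each past the test, and the difference itself passed. This held for 99 genes enriched in the manganese IP and depleted from the control IP, and for 108 depleted from the manganese IP and enriched in the control IP.

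Among the named genes, the change of enrichment was 4.35 log2 for TFPT, 2.92 for COL6A2, 2.80 for EEF1D, 2.67 for BAX, 2.57 for MAFK, 2.23 for PCIF1, 2.14 for LMAN2 and 2.02 for SDF2L1. It was 1.86 for TKT, 1.60 for PHGDH, 1.37 for EEF2 and 1.27 for PSMD3. In the other direction it was -2.12 log2 for DNAJB9, -1.75 for PMAIP1, -1.72 for EIF4A2, -1.37 for SF3B1, -1.35 for INSIG2 and -1.17 for CUL1. EEF2, an elongation factor, was closest to the threshold, at 0.80 log2 in manganese cells (adjusted p = 0.00880, edgeR) and -0.57 log2 in control cells (adjusted p = 0.0485). No cause was tested for any of these.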

How the results depend on the processing

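Groups of 3 libraries limit these counts, and the cause of each shift below was not tested. Of the 130 called genes named, 70 kept their call and direction under every alternative and 37 lost the call without some single library. At an adjusted p of 0.01, 427 genes rose and 520 fell, with 722 moved by the IP only, 79 by the input only, 6 in opposite directions, 120 in the same direction and 20 by neither; the input contrast then had 1379 calls, and enrichment 2992 in manganese cells and 3013 in control cells.

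DESeq2 gave 1574 rises, with 103 opposite, 636 same-direction and 84 neither. On log2(TPM + 1), 775 fell, with 1032 IP only, 142 opposite and 3592 input calls. On log2(TPM + 0.1), 772 fell, with 1065 IP only and 114 opposite. On log2(TPM + 1) without a filter, 498 fell, with 710 IP only, 247 same-direction and 20 neither. By total counts, 124 were opposite and 3742 passed in the input, and without a count filter 88 were neither.

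Without control IP 3 and control input 1 together, 1624 rose and 2374 fell, with 394 input only, 174 opposite, 773 same-direction and 99 neither. Without manganese IP 3 as well, 1691 rose and 2623 fell, with 484 input only, 207 opposite, 931 same-direction, 113 neither and 3505 input calls. Of all 40 lists, 14 had more falls than rises. That number was 8 by total counts, at a mean of 5 CPM and on log2(TPM + 1), 9 on log2(TPM + 0.1), 7 on log2(TPM + 1) without a filter, 23 without the pair of control libraries and 24 without the 3. Lists with more rises numbered 18, and 11 without the 3.

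Leaving out 1 library at a time gave 675 to 1496 rises and 771 to 2269 falls, with 1095 to 2314 IP only, 93 to 400 input only, 24 to 158 opposite, 187 to 815 same-direction and 16 to 78 neither. The IP contrast had 5576 to 6605 calls, the input contrast 1500 to 3213, and enrichment 3638 to 5964 in manganese cells and 3504 to 5821 in control cells. Lists with more rises numbered 14 to 23, lists with more falls 10 to 21, and MAP2K4 changed by -1.58 to -1.24 log2.

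The median of collagens and matrix genes, -0.14 log2 (-0.23 to 0.02 without 1 library), was 0.06 by total counts, 0.01 at 1 CPM in 3 libraries, 0.11 at a mean of 5 CPM, 0.01 with voom, 0.07 with the length offset, 0.02 without manganese IP 2 and 0.01 without manganese input 3. JUN, 0.11 log2 (-0.08 to 0.30 without 1 library), was -0.08 without control IP 3, -0.08 without the pair of control libraries and -0.13 without the 3.

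The labels do not say whether same-numbered IP and input libraries share a lysate, and the main fit did not take the numbers as pairing. Same-numbered libraries deviated together by correlations of -0.121 to 0.066, which cannot decide this with 3 libraries per group. The numbers did enter the naming rule, through the IP-to-input differences of same-numbered libraries. With the replicate block, 896 genes rose and 1259 fell, of which 882 and 1221 were among the reported ones. With a block within each treatment the counts were 936 and 1221, and the IP and input contrasts cannot be estimated in that fit.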
